A study of Danio rerio with 13 samples.

Results

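The genes described here are the 48 interferon signaling genes of the zebrafish ventricle, out of 32520 genes in the count table. They are the zebrafish genes that the study listed under the Reactome set for interferon signaling, each counted once, without 1 gene that also stood under peptide chain elongation. The rule itself uses no measured value. The list comes from a table the study made on these samples, so it is not independent evidence of a direction.

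The study asked whether cardiac lymphatics, which need the growth factors Vegfc and Vegfd, matter for the repair of the zebrafish heart. RNA was measured in 6 vegfc(hy-/-);vegfd(-/-) mutant ventricles, which carry a hypomorphic vegfc allele and a mutant vegfd allele in every cell, and in 7 vegfc(+/+):vegfd(+/+) control ventricles. All 13 hearts had been cryoinjured and were collected 180 days after injury. Each sample was RNA from 12 cryosections of paraformaldehyde-fixed ventricle, which hold heart muscle, vessels, epicardium, blood and immune cells together. The labels give no regenerative outcome for a sample, no age and no batch.

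Interferons are secreted proteins that cells make on sensing foreign nucleic acid. They bind receptor chains whose associated Janus kinases (JAKs) phosphorylate STAT transcription factors, and these switch on interferon-stimulated genes. Among the products are RNA-editing and RNA-binding proteins, Mx GTPases, the ubiquitin-like protein ISG15 with its conjugating enzymes, and antigen-presenting molecules, while phosphatases and SOCS and PIAS proteins damp the signal. Reactome counts translation factors and nuclear pore proteins in the set as parts of the antiviral mechanism.

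The libraries were thin for single genes. Total counts were 3575023 to 12972634 in mutant ventricles and 2123784 to 4291363 in control ventricles, but rn7sl1, the RNA of the signal recognition particle, held 94.7 to 96.4% of them in mutants and 60.8 to 91.5% in controls. Counts on all other genes were 171218 to 596616 in mutants and 256802 to 1070324 in controls, and 2729 to 7398 genes had a count in a sample. In mutants vegfc had 0 counts in every sample, and in controls it had 32 counts in control 1 and 0 in the others. No sample had a count of vegfd, so these genes could not check the genotype labels. The counts of 4 matched cardiomyocyte markers, of 12 listed, summed to 142 to 2219 in mutants, with a median of 1310.5, and 166 to 423 in controls, with a median of 301. For 1 of them, actc1a, the counts did not overlap, with 137 to 1003 in mutants and 0 to 129 in controls. In myl7, cmlc1 and tpm4a they overlapped, and tpm4a had 0 to 238 counts in mutants and 16 to 212 in controls. Among all genes tested, the groups did not overlap in library-scaled counts in 0.0815%. The 6 T cell markers summed to 0 to 254 in mutants, with a median of 9.5, and 15 to 171 in controls, with a median of 100, and cd8a and cd28 were at 0 in all samples. The 4 matched macrophage markers, of 7 listed, summed to 0 to 278 in mutants, with a median of 83.5, and 0 to 175 in controls, with a median of 0. Of 5 matched neutrophil markers lyz, mmp9 and mmp13a were at 0 in all samples, and cxcr1 and nccrp1 brought the sum to 0 to 32 in mutants and 0 to 1 in controls. Whether cell composition or the rn7sl1 share had a part in the member values was not tested.

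All 48 members had a count in at least 1 sample, and 18 had one in at least 7 of the 13 samples. These 18 were 46.2% of the tested members, beside 37.8% of all genes tested. Of their 624 values, 343 (55%) were 0, 67 (10.7%) were between 1 and 3 counts and 200 (32.1%) were 10 or more. The members were detected much like other genes here: 255 of the 507 values of the tested members were 0 (50.3%), against 54.6% of the values of all tested genes. A median of 6 of 13 samples had a count of a given member, and the sample with the most counts held a median of 44.2% of that member's total. The members thus tended to be well counted in some hearts and absent from others of the same genotype. In these bulk samples fewer cells of a type and less RNA per cell cannot be told apart.

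**Figure D1:**
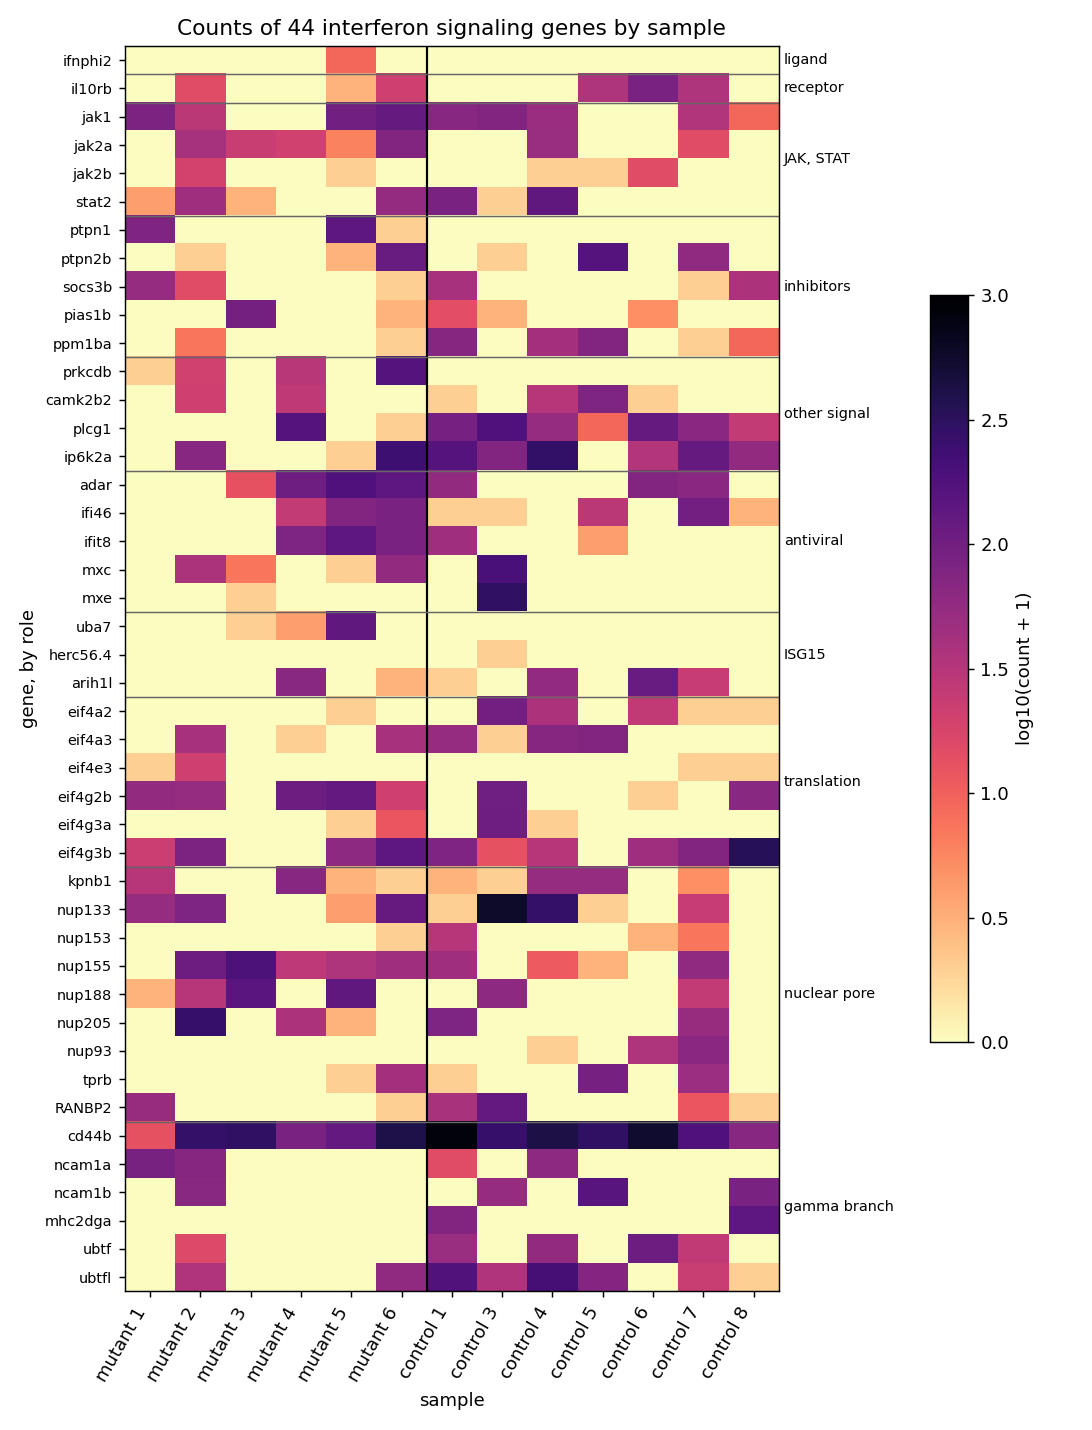
Counts of 44 of the 48 interferon signaling genes (rows, grouped by role) in the 6 mutant and 7 control samples (columns), as log10(count + 1). Pale cells are 0 counts, which make up 314 of 572 cells, and cd44b is the 1 gene with a count in all 13 samples.

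The number of members with at least 10 counts was 6 to 24 in mutants, with a median of 12.5, and 8 to 23 in controls, with a median of 16. The summed member counts were 652 to 2464 in mutants and 845 to 2353 in controls. As a percent of all counts outside rn7sl1 they were 0.145 to 0.487% in mutants, with a median of 0.311%, and 0.0789 to 0.546% in controls, with a median of 0.527%. The groups overlapped in each of these measures. Mutant 2 had both the most members with at least 10 counts (24) and the most genes detected (7398), and mutant 3 had the fewest of both (6 and 2729).

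**Figure D2:**
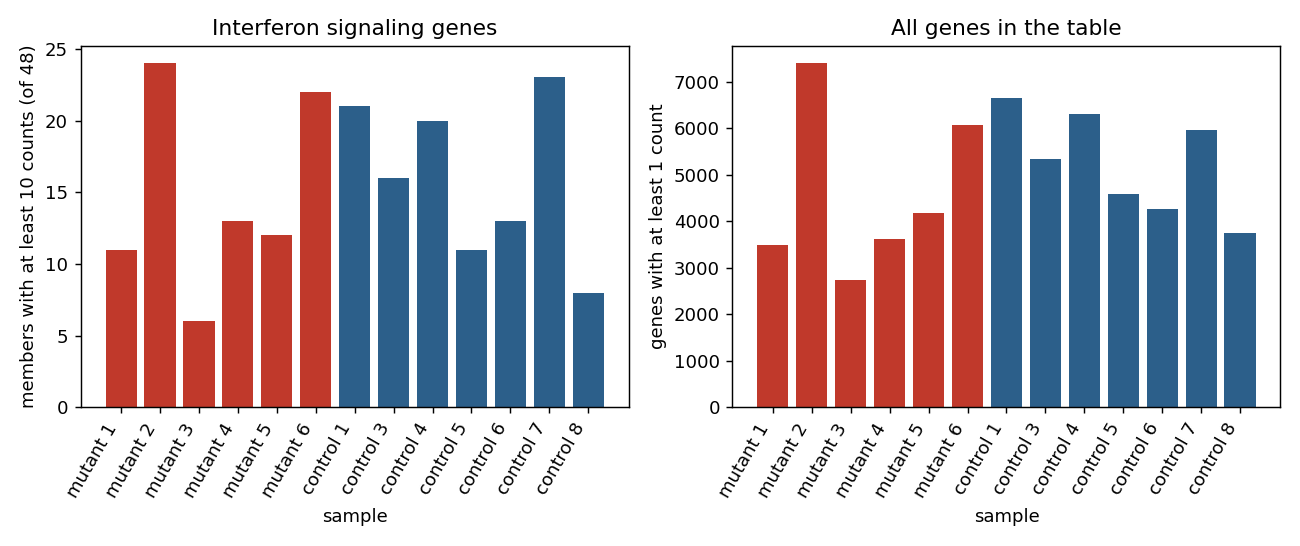
Number of interferon signaling genes with at least 10 counts (left) and of all genes with at least 1 count (right) in each of the 6 mutant (red) and 7 control (blue) samples. The member counts run between 6 and 24 in mutants and between 8 and 23 in controls, and the samples with few genes detected in the right panel also have few members in the left.

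Genes averaging 10 counts or more over the samples were compared between 6 mutant and 7 control ventricles by edgeR's quasi-likelihood test, and 39 of the 48 members passed this filter. A member could pass through 1 group alone. At an unadjusted p under 0.05, 6 of the 39 tested members differed (15.4%), beside 15.2% of all 6138 genes tested, so the share among members was that of the background. The 3 members higher in mutants were uba7, prkcdb and ptpn1, beside 5.9% of all genes higher. The 3 lower in mutants were mhc2dga, mxe and eif4a2, beside 9.3% of all genes lower. In 4 of the 39 tested members every sample of 1 group was at 0, as in 9.24% of all genes tested. In edgeR 0 members passed an adjusted p of 0.05, beside 6 of all 6138 genes (0.0978%). DESeq2 gave 1 of the 39 at an adjusted p under 0.05, mhc2dga, beside 2.31% of all genes tested, and the exact permutation test gave 0. The DESeq2 log2 fold change of mhc2dga was -23.43, an extreme value for a gene counted only in controls 1 and 8.

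The log2 fold change, mutant over control, was above 0 for 15 tested members and below 0 for 24, where 44% of all genes tested were above 0. Its median was -0.85 over the tested members and -0.30 over all genes tested. The exact two-sided permutation test over all 1716 assignments of the group labels, on the difference in mean log2(CPM + 1), gave an unadjusted p under 0.05 for 2 members, beside 3.89% of all genes tested. These were prkcdb, higher in mutants (1.92% of all genes tested), and plcg1, lower in mutants (1.97% of all genes tested), and each had an adjusted p of 0.947. In 0 members did the groups not overlap, beside 0.0815% of all genes tested. Each of the 6 members that edgeR called had at most 1 count in 1 of the groups, and each fell under the filter once a single heart was left out.

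**Figure D3:**
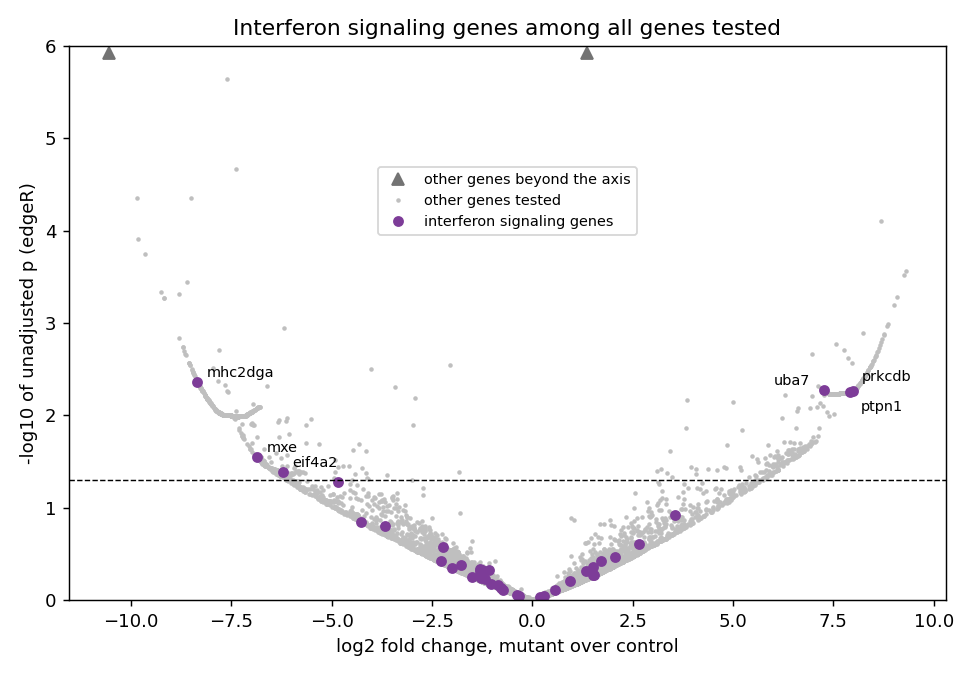
Log2 fold change, mutant over control (x axis), against -log10 of the unadjusted p of edgeR (y axis) for the 39 tested interferon signaling genes (purple) and all other tested genes (grey); triangles at the top edge are 2 other genes beyond the axis. The dashed line marks the threshold of 0.05, and 6 of the purple points lie above it, 3 on each side.

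The ligand was scarcely seen, while the receptor chain had a count in 6 of 13 samples, the median over all genes tested. The interferon gene ifnphi2 encodes a type I interferon of fish, and its only counts were 8 in mutant 5. It stood under the filter and was not tested. The receptor chain il10rb, whose mammalian counterpart is shared by the IL-10 and lambda interferon receptors, had 0 to 20 counts in mutants, with a median of 1, and 0 to 85 in controls, with a median of 0. It reached 10 counts in mutants 2 and 6 and in controls 5, 6 and 7, so the groups overlapped. Its log2 fold change was -2.27 (SE 2.59, edgeR adjusted p = 0.988).

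The kinases and STATs, which carry the signal from the receptor to the nucleus, gave 0 calls among their 4 tested members. Over all genes tested edgeR called 15.2%, so 0 of 4 does not set this group apart. The kinase gene jak1 had 0 to 124 counts in mutants, with a median of 54.5, and 0 to 75 in controls, with a median of 33. It was at 0 in mutants 3 and 4 and in controls 5 and 6. Its level was 8.67 ± 7.76 CPM in mutants and 5.88 ± 5.18 CPM in controls (SD, n = 6 and n = 7). The difference, a log2 fold change of 0.56 (SE 1.93, edgeR adjusted p = 1), was below its own error.

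The second kinase gene, jak2a, was found in more mutant than control hearts, with 5 to 75 counts in mutants 2 to 6 and 0 in mutant 1, against 50 counts in control 4, 14 in control 7 and 0 in the other controls. The groups overlapped, and the log2 fold change was 1.55 (SE 2.49, edgeR adjusted p = 1). Its copy jak2b had 18 counts in mutant 2 and 1 in mutant 5, against 14 in control 6 and 1 each in controls 4 and 5, and was not tested. The counting kept reads of high mapping quality, so reads that fit both jak2 copies may be missing from either.

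The transcription factor gene stat2, part of the complex that type I interferon activates, had 0 to 54 counts in mutants, with a median of 2.5, and 0 to 133 in controls, with a median of 0. High values came from mutants 2 and 6 and from controls 1 and 4. For stat2 the log2 fold change was -0.78 (SE 2.29, edgeR adjusted p = 1).

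The antiviral effectors, whose products act on viral RNA or particles, did not move together: 3 of the 5 had a log2 fold change above 0 and 2 below. The editing enzyme gene adar, which turns adenosine into inosine in double-stranded RNA, had 0 to 177 counts in mutants, with a median of 57.5, and 0 to 72 in controls, with a median of 0. Its counts were 103, 177 and 140 in mutants 4, 5 and 6 and 12 or fewer in mutants 1 to 3. In controls 1, 6 and 7 it had 55, 72 and 64 counts, and 0 in the other controls. The level was 12.1 ± 12.7 CPM in mutants and 6.35 ± 8.21 CPM in controls, with a log2 fold change of 0.93 (SE 1.84, edgeR adjusted p = 1).

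The gene ifit8 belongs to the IFIT family of RNA-binding proteins. It had 80, 138 and 83 counts in mutants 4, 5 and 6 and 0 in mutants 1 to 3, against 46 counts in control 1, 3 in control 5 and 0 in the other controls. Thus 3 mutants stood above every control and 3 stood at 0, the value of most controls. The level was 8.53 ± 9.76 CPM in mutants and 1.34 ± 3.3 CPM in controls. The log2 fold change of 2.65 (SE 2.29) did not pass, with an edgeR adjusted p of 0.858 and an exact permutation p of 0.135.

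The gene ifi46, ifi27.4 in the reference table, had 24, 76 and 85 counts in mutants 4, 5 and 6 and 0 in mutants 1 to 3, against 0 to 95 in controls with a median of 1. The highest value was in control 7, and control 5 had 28. The level was 4.89 ± 5.86 CPM in mutants and 4.3 ± 8.89 CPM in controls, a log2 fold change of 0.19 (SE 2.21, edgeR adjusted p = 1).

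The Mx genes encode dynamin-like GTPases that bind viral particles in mammals. Counts of mxc were 37 in mutant 2, 55 in mutant 6 and 6 or fewer in the other mutants, against 196 in control 3 and 0 in the other controls. Counts of mxe were 1 in mutant 3 and 0 in the other mutants, against 302 in control 3 and 0 in the other controls. Control 3 therefore held all control counts of both Mx genes. The ratio of summed library-scaled counts of mxe, mutant over control, was 0.00345, with a 95% counting interval of 8.7e-05 to 0.0193. This interval covers counting error only, and only if reads are independent, while removal of duplicate reads is not given. The edgeR p of mxe was 0.0284 (log2 fold change -6.85, SE 3.12, adjusted p = 0.238), while its exact permutation p was 1. Reads shared between Mx copies could be lost to the mapping quality filter.

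**Figure D4:**
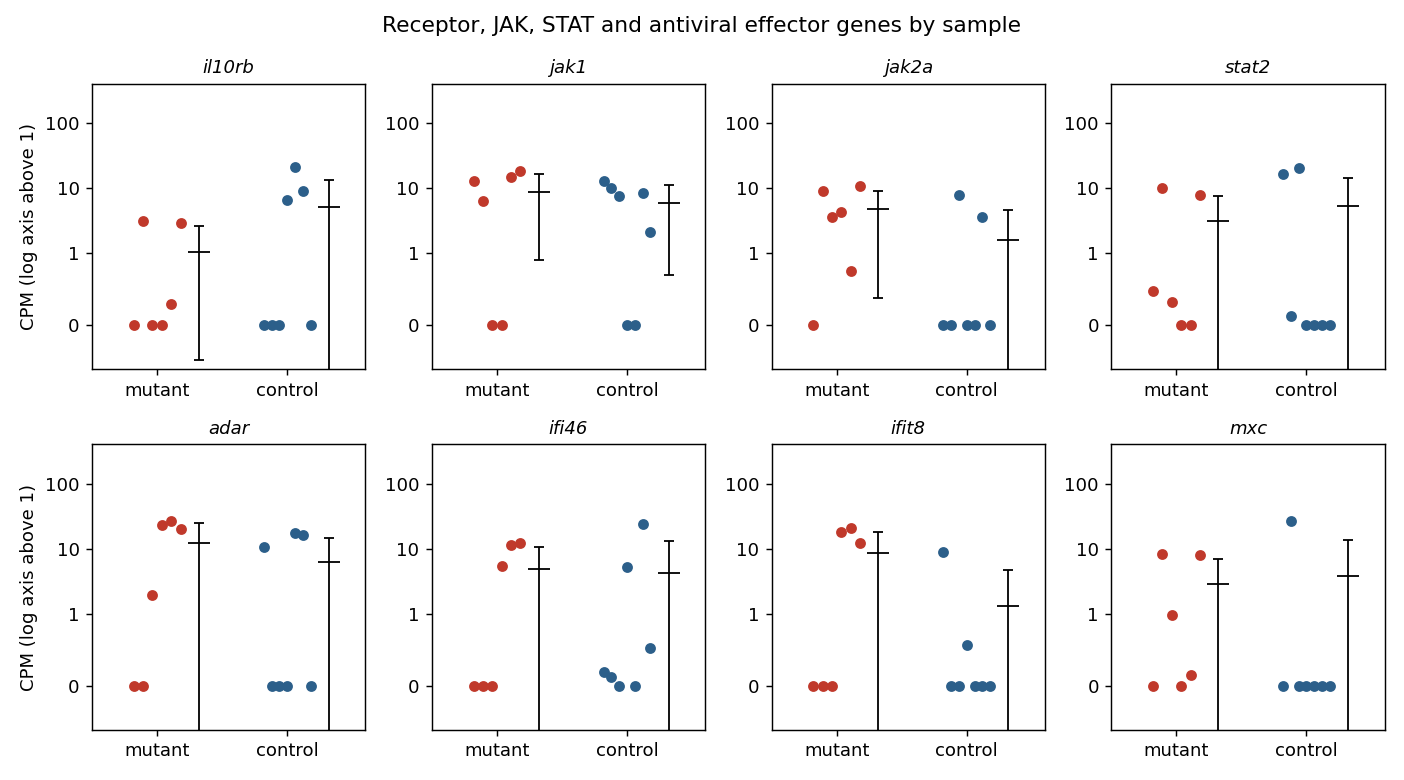
CPM (counts scaled to a common library size with TMM; linear below 1 and log above) of 8 receptor, JAK, STAT and antiviral effector genes, 1 point per sample, with mutants (red, n = 6) left of controls (blue, n = 7); bars are mean and SD and are cut where they reach below 0. In each panel at least 1 sample lies at 0 and the groups overlap; ifit8 and ifi46 are at 0 in mutants 1 to 3.

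Beside 15.2% of all genes tested, the inhibitors of the signal gave 1 call among 4 tested members, ptpn1. It encodes a tyrosine phosphatase that acts on Janus kinases. It had 78 counts in mutant 1, 135 in mutant 5, 1 in mutant 6 and 0 in the other mutants, and 0 in all 7 controls. The mutant mean was 8.91-fold the floor of 3 counts per control library, a mean of 0.614 CPM. The edgeR p was 0.00564 and the adjusted p 0.103, and the exact permutation p was 0.0699. Without mutant 5 the gene fell under the filter.

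Its relative ptpn2b, the counterpart of a phosphatase that dephosphorylates JAK and STAT proteins in mammals, had 112 counts in mutant 6 and 2 or fewer in the other mutants, against 160 counts in control 5, 59 in control 7 and 1 or fewer in the other controls. For ptpn2b the log2 fold change was -1.19 (SE 2.23, edgeR adjusted p = 1). The suppressor socs3b, which binds and blocks JAKs, had 0 to 53 counts in mutants, with a median of 0.5, and 0 to 39 in controls, with a median of 0. At least 10 counts were reached by ptpn2b in 1 mutant and 2 controls, and by socs3b in 2 mutants and 2 controls.

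The phosphatase gene ppm1ba was counted in 2 mutants and 5 controls, with 6 counts in mutant 2, 1 in mutant 6 and 0 in the other mutants, against 0 to 73 in controls with a median of 8. Controls 1, 4 and 5 had 69, 41 and 73 counts, and no mutant reached 10. The log2 fold change was -4.26 (SE 2.91), which did not pass in edgeR (p = 0.144, adjusted p = 0.643) or in the exact permutation test (p = 0.0659). The STAT inhibitor gene pias1b had 93 of its counts in mutant 3 and was not tested.

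Of 4 tested other signal proteins, 2 had an unadjusted p under 0.05 by the exact permutation test, beside 3.89% of all genes tested. These were prkcdb and plcg1, in opposite directions, and each had an adjusted p of 0.947. The gene prkcdb encodes a protein kinase C delta, a serine and threonine kinase. It had 19 counts in mutant 2, 29 in mutant 4, 162 in mutant 6 and 1 in mutant 1, with 0 in mutants 3 and 5, and 0 in all 7 controls. Thus 4 of 6 mutants and none of the controls had a count. The mutant mean was 9.41-fold the floor of 3 counts per control library. The edgeR p was 0.00537 (adjusted p = 0.103) and the exact permutation p 0.021, which became 0.0606 without any single control. Without mutant 6 the gene fell under the filter of the edgeR comparison.

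The gene plcg1 encodes phospholipase C gamma, which splits a membrane phospholipid into second messengers and can be recruited by JAK-coupled receptors. It had 159 counts in mutant 4, 1 in mutant 6 and 0 in the other mutants, against 8 to 178 in controls with a median of 64. It was present in all 7 controls, and every mutant except mutant 4 lay below every control. In CPM these values were 36.2 in mutant 4 and at most 0.146 in the other mutants, against 1.5 to 30.3 in controls. The exact permutation p was 0.021 (adjusted p = 0.947), on a difference of -2.71 in mean log2(CPM + 1). By edgeR, which compares mean levels, its log2 fold change was -1.29 (SE 1.84, adjusted p = 1). Without mutant 4, edgeR gave -8.12 (p = 0.00351, adjusted p = 0.165) and the permutation p was 0.00253 (adjusted p = 0.974).

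The kinase gene ip6k2a, linked to interferon-induced cell death in human cells, had 68 counts in mutant 2, 241 in mutant 6, 1 in mutant 5 and 0 in the other mutants, against 0 to 281 in controls with a median of 76. Of the controls, 6 of 7 held 32 counts or more, and control 5 had 0. The level was 8.42 ± 14.4 CPM in mutants and 19.7 ± 15.6 CPM in controls, and the log2 fold change of -1.22 (SE 1.75) had an exact permutation p of 0.101. The calmodulin kinase gene camk2b2 had 20 and 26 counts in mutants 2 and 4, against 31 and 80 in controls 4 and 5.

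**Figure D5:**
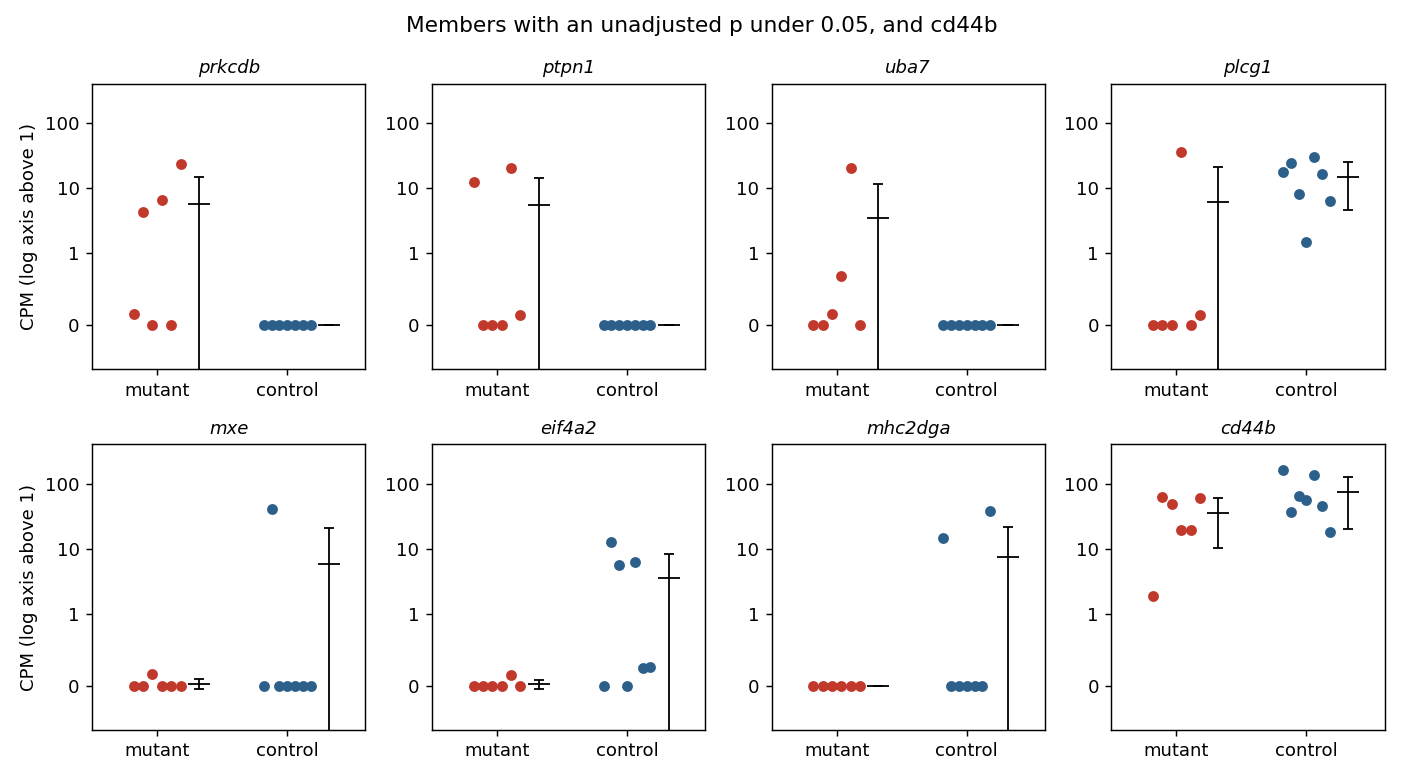
CPM (counts scaled to a common library size with TMM; linear below 1 and log above) of the 7 members with an unadjusted p under 0.05 in edgeR or in the permutation test, and of cd44b, 1 point per sample, with mutants (red, n = 6) left of controls (blue, n = 7); bars are mean and SD and are cut where they reach below 0. In prkcdb, ptpn1 and uba7 all controls lie at 0, in mhc2dga all mutants lie at 0, and in plcg1 1 mutant lies among the controls.

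The ISG15 branch contains enzymes that attach the ubiquitin-like ISG15 to proteins and some of their targets. Its activating enzyme uba7 had 134 counts in mutant 5, 3 in mutant 4, 1 in mutant 3 and 0 in the other mutants, and 0 in all 7 controls. The mutant mean was 5.72-fold the floor of 3 counts per control library. The edgeR p was 0.00535 (adjusted p = 0.103) and the exact permutation p 0.0699. Of its 138 counts 4 lay outside mutant 5, so the call rested on 1 heart. The ligase gene herc56.4, ENSDARG00000074052, listed by the study under a clone name, had 1 count in all, in control 3. The ligase gene arih1l had 66 counts in mutant 4 and 2 or fewer in the other mutants, against 0 to 117 in controls.

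Beside 15.2% of all genes tested, 1 of the 4 tested translation and exon junction genes was called, eif4a2. It encodes an RNA helicase that unwinds mRNA leaders for the ribosome. It had 1 count in mutant 5 and 0 in the other mutants, against 0 to 95 in controls with a median of 1. Controls 3, 4 and 6 held 95, 36 and 25 counts. The ratio of summed library-scaled counts, mutant over control, was 0.00659, with a 95% counting interval of 0.000166 to 0.0372. This interval takes reads as independent and covers counting error only, not the spread between hearts. The edgeR p was 0.0414 (log2 fold change -6.21, SE 3.04, adjusted p = 0.293) and the exact permutation p 0.0862. It passed 0.05 in 6 of 12 edgeR fits without 1 sample, where p reached 0.0715, and was 0.1 in the likelihood ratio test of edgeR.

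The scaffold gene eif4g3b had 0 to 136 counts in mutants, with a median of 41, and 0 to 342 in controls, with a median of 46, a log2 fold change of -1.25 (SE 1.75). The highest value came from control 8, and without control 8 the log2 fold change was 0.01. The related eif4g2b was at 20 to 127 counts in 5 mutants and 0 in mutant 3, against 100 in control 3, 65 in control 8, 1 in control 6 and 0 in the other controls. Its log2 fold change of 1.33 (SE 1.92) had an exact permutation p of 0.115. The exon junction helicase gene eif4a3 had 0 to 39 counts in mutants, with a median of 0.5, and 0 to 75 in controls, with a median of 1. Both eif4e3 and eif4g3a stood under the filter.

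The nuclear pore and import genes move mRNA and proteins between nucleus and cytoplasm. They gave 0 calls among 7 tested members, beside 15.2% of all genes tested. Their log2 fold changes were above 0 in 4 and below 0 in 3. The pore scaffold gene nup155 had 0 to 183 counts in mutants, with a median of 39.5, and 0 to 59 in controls, with a median of 2. It held at least 27 counts in 5 of 6 mutants, while mutant 1 and controls 3, 6 and 8 were at 0. Its log2 fold change was 1.70 (SE 1.94, exact permutation p = 0.1). The gene nup133 had 0 to 120 counts in mutants, with a median of 28, and 0 to 581 in controls, with a median of 1, the 2 highest values lying in controls 3 and 4. The import receptor gene kpnb1 had 0 to 68 counts in mutants, with a median of 1.5, and 0 to 53 in controls, with a median of 2. Control 7 held at least 10 counts of 7 of the 9 pore and import genes, and control 8 held 1 count of them in all.

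The set also holds surface and nuclear proteins of the interferon gamma branch. Of these 6, 5 had a log2 fold change below 0, beside 3437 of all 6138 genes tested. The hyaluronan receptor gene cd44b was the only member with a count in all 13 samples, at 12 to 406 counts in mutants, with a median of 203, and 68 to 847 in controls, with a median of 301. Its level was 35 ± 24.9 CPM in mutants and 73.9 ± 53.7 CPM in controls. Mutant 1 was the lowest sample at 1.89 CPM and control 1 the highest at 162 CPM, and the other mutants lay within the control range of 18 to 162 CPM. The log2 fold change of -1.08 (SE 1.50) was not past the spread between hearts, with an edgeR p of 0.473 and an exact permutation p of 0.128.

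The gene mhc2dga, ENSDARG00000103716, listed by the study under a clone name, is a gene of the major histocompatibility complex class II, whose products present peptides to T cells. It had 0 counts in all 6 mutants, against 75 in control 1, 142 in control 8 and 0 in the other 5 controls. The control mean was 13.9-fold the floor of 3 counts per mutant library, a mean of 0.534 CPM. That control mean rested on controls 1 and 8 alone. Its edgeR p was 0.00436 (adjusted p = 0.103), while the exact permutation p was 0.462, and without control 8 it fell under the filter. Of the nuclear genes ubtf and ubtfl, ubtf had 15 counts in mutant 2 and 0 in the other mutants, against 0 to 107 in controls. The related ubtfl had 34 counts in mutant 2, 58 in mutant 6 and 0 in the other mutants, against 0 to 209 in controls with a median of 34. For ubtfl the log2 fold change was -2.23 (SE 2.00, exact permutation p = 0.133). The adhesion genes ncam1a and ncam1b were each at 0 in most samples of both groups.

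Other genes of the pathway were looked up in lists of their own. Of 14 further ligands and receptors, 10 matched the table and 1 was tested, and of 14 interferon regulatory factors 11 matched and none passed the filter. Of 34 further interferon-stimulated genes 29 matched, 5 were tested and 0 were called by edgeR at an unadjusted p under 0.05. Of 18 further signal transducers 4 were tested and stat4 was higher in mutants, with 423 counts in mutant 2, 47 in mutant 6, 3 in mutant 1 and 0 in the other mutants, against 7 in control 1 and 0 in the other controls (edgeR p = 0.00597, adjusted p = 0.103; exact permutation p = 0.168). Of 6 tested genes of the nucleic acid sensors 0 were called. Over all genes tested edgeR called 15.2%.

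Among 6 tested genes of antigen presentation, cd74b was higher in mutants, with 96 counts in mutant 3, 46 in mutant 6 and 0 in the other mutants, against 1 count in control 6 and 0 in the other controls. In the same list b2m and psmb9a were lower in mutants, but control 5 held 295 of the counts of b2m and control 3 held 140 of those of psmb9a. The edgeR adjusted p was 0.268 for cd74b, 0.279 for b2m and 0.103 for psmb9a. The exact permutation p was 0.192 for cd74b, 0.878 for b2m and 0.731 for psmb9a. Of the RIG-I and MDA5 set without the members 1 of 18 was called, and of the TRAF6 and IRF7 set 0 of 8. Over all these lists together and the cytokine signaling genes outside the interferon set, 9 of 61 tested genes had an unadjusted p under 0.05 (14.8%, 2 higher and 7 lower), again near the 15.2% of all genes. The cytokine signaling genes alone gave 4 of 26 in edgeR (15.4%, all lower, beside 9.3% of all genes lower). By the exact permutation test they also gave 4 of 26 (15.4%), beside 3.89% of all genes and 2 of 39 interferon genes, and 0 of all genes passed its adjusted p. No gene of these lists passed an adjusted p of 0.05 in edgeR.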

How the data were processed

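RNA from 12 cryosections (8 µm) of each fixed ventricle was depleted of ribosomal RNA and made into directional libraries. The authors trimmed reads, aligned them with BWA 0.7.17 to GRCz11 and counted those with mapping quality 20 or more per gene, on the correct strand, with featureCounts 1.5.0. The raw counts were deposited, unfiltered. Removal of duplicate reads is not given in the sources used here. Gene symbols came from the study's list and the reference name table.

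Counts of 6138 genes averaging 10 or more over the samples were compared between 6 mutants and 7 controls with edgeR 4.0.16 (R 4.3.3; TMM libraries, quasi-likelihood, prior count 0.125, Benjamini-Hochberg over all tested genes). The SE is the absolute log2 fold change over the square root of F. A second, exact two-sided permutation test used log2(CPM + 1), a pseudocount of 1, with a smallest possible p of 0.000583. Steps were tested on simulated data. For edgeR these had a far lower dispersion (spread between samples) than the real counts, whose median was 10.4. The simulation therefore does not show the error rates of edgeR here. A floor of 3 counts was 0.438 to 0.683 CPM in mutants and 0.402 to 0.792 CPM in controls. Folds against this floor compare group means and do not cover the spread between hearts, so they are not lower bounds on a difference. The labels number the samples of each group but do not name separate animals, so p-values measure the spread between these samples.

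Members and gene lists were chosen with earlier results of these data known. Values are given per sample for members with an unadjusted p under 0.05, members counted in at least 7 samples, the ligand, receptor, kinases, STATs, effectors and 3 inhibitors, 31 in all, and the other 17 by range and counts, except that 4 members are not reported here by name. Alternatives were other library scalings, filters and tests (DESeq2 1.42.0 among them), a replicate block, a pseudocount of 0.1, a fit without rn7sl1 and leaving out each sample. Permutation tests without each sample were added after seeing the data.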

Additional observations from a re-analysis of the deposited data

Results flagged for a closer look

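For each member described by sample the gap between the highest or lowest sample and its nearest neighbour was divided by the range of its group. It passed Dixon's tabulated 95% critical value in 19 of 53 groups of samples, 11 in mutants and 8 in controls, where chance selects about 1 in 20 groups. The critical value assumes normally spread values, which genes at 0 in most samples do not have. In 5 groups every other sample was at 0, and in 4 the outlying sample held under 10 counts.

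In mutants the gap was 1 of the range for ifnphi2 and eif4a2 in mutant 5 and for mxe in mutant 3. It was 0.996 for plcg1 and 0.695 for kpnb1 in mutant 4, and 0.966 for uba7 in mutant 5. Mutant 6 stood apart by 0.9815 for ptpn2b and 0.7205 for prkcdb. Mutant 2 did so by 0.962 for jak2b and 0.891 for ppm1ba, and mutant 1 by 0.6253 for socs3b. The value of socs3b lies under the critical value of 0.628 found here by integration for 6 samples (0.569 for 7), and was the 1 such case.

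In controls the gap was 1 for mxc and mxe in control 3. Control 6 stood apart by 0.9455 for jak2b and 0.578 for il10rb, and control 1 by 0.936 for ifit8. Control 8 did so by 0.799 for eif4g3b and 0.617 for mhc2dga and control 7 by 0.781 for ifi46.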

How the results depend on the processing

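The counts of members at an unadjusted p under 0.05, 3 higher and 3 lower in edgeR, moved with the filter and the scaling. The share of all genes called stands in brackets (5.9% higher and 9.3% lower in the comparison reported). Higher members were 5 with upper-quartile scaling (12.3%) and 5 with no filter (13.1%), but 0 with a count in at least 7 samples (2.15%) and 0 with filterByExpr (1.14%), filters that none of the 6 called genes passed. Lower members were 5 with unscaled libraries (13.6%), 5 with DESeq2 (9.03%) and 0 with filterByExpr (1.5%). With a count in at least 7 samples, 2 of 18 tested members were lower (2.39%), neither of them among the 6 called genes. DESeq2 gave 1 member at an adjusted p under 0.05, mhc2dga (2.31%), and the other alternatives gave 0. The permutation test, 1 higher and 1 lower, gave 3 (2.92%) and 3 (1.79%) with upper-quartile scaling, 2 lower with a pseudocount of 0.1 (2.25%) and 6 lower with unscaled libraries (4.51%), beside 1.92% higher and 1.97% lower in the comparison reported.

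Leaving out each sample gave 1 (without mutant 5, 5.2%) to 5 (without control 1, 7.28%) higher and 1 (without control 3, 7.23%) to 4 (without mutant 2, 13.7%) lower members in edgeR, and 0 at an adjusted p under 0.05 each time. In the permutation test, an alternative added after seeing the data, it gave 0 to 4 higher members. There were 0 without control 1, 3, 5, 6, 7 or 8 (0.994 to 1.27%) and 4 without mutant 1 (2.8%). Lower members were 1 (1.3 to 2.69% in the settings with 1) to 4 (without control 5, 2.36%). With a replicate block, 0 members were higher (0.456%) and 1 lower (1.32%). Deviations of same-numbered samples correlated at -0.024 to 0.088, and only replicate 5 correlated best with its own number (0.088). With most values at 0, such low correlations cannot exclude that the replicate numbers pair samples.

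The median log2 fold change of all genes, -0.30, was -0.51 with RLE scaling, 0.39 with upper-quartile scaling, -1.50 unscaled and 0 in DESeq2. The direction turned for jak1 (-0.83) and kpnb1 (-0.08) unscaled, kpnb1 without mutant 4 (range over left-out samples -1.37 to 1.08), eif4g3b without control 8 (range -1.68 to 0.01), mxe in DESeq2 (0.14), nup133 with the replicate block (0.77) and cd44b with upper-quartile scaling (1.87). Their causes were not tested. Of 354 alternative values for single members 347 kept their direction and 18 crossed an unadjusted p of 0.05 in edgeR or DESeq2: 9 for eif4a2, 3 for mxe, 1 each for uba7, ptpn1, prkcdb and mhc2dga (all with the replicate block), and 1 each, towards a call, for plcg1 without mutant 4 and nup155 with upper-quartile scaling. Genes absent from most hearts limit any reading to detection rather than level. A 0 allows up to 3 counts by counting error alone, and this limit does not cover the spread between hearts.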

Other observations

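The genes adar, ifit8 and ifi46 were high in mutants 4, 5 and 6. In mutants 1, 2 and 3 they were at 0, except for 12 counts of adar in mutant 3. This pattern was chosen after the values were seen and is given as values. Of all 6138 tested genes 374 (6.09%) had at least 10 counts in each of mutants 4, 5 and 6, among them 6 members: nup155, adar, eif4g2b, ifit8, ifi46 and cd44b. With 0 counts in mutants 1, 2 and 3 required as well, 33 remained, which is 0.538% of all 6138 tested genes. The 2 members among these 33 were ifit8 and ifi46. The pattern was read from these genes, so their place among the 33 was fixed in advance. Mutant 2 had the most genes detected of all samples (7398) and 0 counts of adar, ifit8 and ifi46. Whether the number of genes detected had a part in the pattern was not tested.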
